A study of Arabidopsis thaliana with 48 samples.

Results

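Guard cells of 3 Arabidopsis thaliana G protein mutants were compared with whole leaves of the same mutants, without abscisic acid (ABA). The 9 guard cell arrays of agb1, gpa1 and agb1 gpa1 were set against the 9 leaf arrays of these genotypes, 3 arrays for each tissue and genotype, with genotype as a covariate. These are 18 of the 48 arrays of a series that crossed tissue, genotype and ABA. All 22746 probe sets other than the array's own controls were tested, so the members were chosen by sample label and not by any measured value. The question was which transcripts separate the pore-forming cells from the leaf when one or both of the G protein subunits are missing.

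All plants had the Col-0 (Columbia) background. The mutants carried the alleles agb1-2, gpa1-4, or both in the double mutant, and every array used here came from material held for 3 h in ethanol, the solvent control for ABA. The plants were 5 weeks old and grown with 8 h of light and 16 h of dark. A guard cell sample pooled 300 leaves from 60 to 70 plants, and a leaf sample pooled 10 leaves from 3 to 4 plants grown beside them, so the samples average over plants. The labels differ on whether the material was treated as leaves or as isolated guard cells, and on whether the controls received ethanol or nothing. The design text calls the replicates independent biological ones. 6 arrays of wild type (WT), 3 of each tissue and also held in ethanol, were used only in the closing comparison with the mutants.

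A stoma is a pore between a pair of guard cells, whose turgor opens and closes it in response to light, carbon dioxide, water status and ABA. The heterotrimeric G protein has an alpha subunit, encoded by GPA1, and a beta subunit, encoded by AGB1, which acts together with a gamma subunit, and mutants of both are known for altered guard cell responses to ABA. Guard cells hold many mitochondria and fewer, smaller chloroplasts than the mesophyll, the tissue that does most of a leaf's photosynthesis.

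Levels are the deposited log2 values of the arrays, and a difference is the guard cell mean minus the leaf mean on that log2 scale, so that 1 is a 2-fold difference. The lowest deposited value was 2.42. A level of one probe set is not set against that of another. A gene is said to be higher or lower in guard cells only where limma's moderated test gave a Benjamini-Hochberg adjusted p under 0.05 over all 22746 probe sets. Of these, 13513 were tied to exactly 1 gene, 503 to several and 8730 to none in the annotation used here, and only the first kind is named. The genes GPA1 and AGB1 themselves had no probe set so named and are not analysed here, so the genotypes rest on the labels. Where genes have near-identical copies, in a family or between organelle and nucleus, their probe sets can share signal.

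The 18 arrays fell into tissues before any test. On the first principal component, which held 82.95% of the variance, guard cell arrays lay between 80.42 and 106.27 and leaf arrays between -101.37 and -83.62. The second held 4.77% and spread the leaf arrays from -40.70 to 46.57, against -9.69 to 18.44 for guard cells. Correlations between arrays of a group were 0.969 to 0.991, and array medians were 5.09 to 5.34.

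Over the 3 mutants, 13359 probe sets passed the test, 58.7% of those tested. Of these, 6937 (30.5%) were higher and 6422 (28.2%) lower in guard cells, and at least 2-fold differences made up 2902 (12.8%) and 3183 (14%). The ranges of the 9 and the 9 arrays did not overlap for 7139 probe sets (31.4%), of which 3509 (15.4%) lay higher and 3630 (16%) lower in guard cells. The median difference over all probe sets was 0.03. With a majority of probe sets past the threshold, a gene group is read below against these shares and not against 0. A sample of bulk tissue gives a total, so fewer cells of a type and less RNA per cell cannot be told apart, and whole leaves also contain guard cells.

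The tissue labels were first set against marker genes of guard cells. 5 of 43 marker genes had a probe set tied to them alone. Of these, 4 were higher in guard cells and 1 lower, with a median difference of 3.64. FMA (FAMA), the basic helix-loop-helix (bHLH) factor that completes guard cell formation, read 10.63 to 11.66 with a median of 10.92 on guard cell arrays and 4.75 to 5.86 with a median of 5.204 on leaf arrays. Every guard cell array lay far above every leaf array, and the difference was 5.79 (SE 0.158, adjusted p = 3.03e-15). AT4G14480 (BLUS1), a kinase of the blue light signalling that opens stomata, read 8.50 to 9.76 (median 8.81) against 3.80 to 4.96 (median 4.42), a difference of 4.47. The marker locus AT1G22690 read 13.58 to 14.17 (median 14.01) against 9.34 to 10.86 (median 10.30), a difference of 3.64.

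The earlier factors of the stomatal lineage were near the low end of the scale in both tissues. SPCH (SPEECHLESS), the bHLH factor that starts the lineage, read 3.63 to 4.61 (median 4.08) on guard cell arrays and 3.31 to 3.73 (median 3.52) on leaf arrays, a difference of 0.54 with ranges that overlapped. MUTE, which ends the lineage's asymmetric divisions, differed by -0.14 (adjusted p = 0.0367), and this call was lost under 13 of the alternatives to the processing. CHX20, a cation/proton exchanger of guard cell endomembranes, read 11.10 to 12.11 (median 11.49) against 6.74 to 7.87 (median 7.38), a difference of 4.25 (SE 0.148, adjusted p = 6.37e-14). CHX20 was the 1 gene of 7 in its family that was higher in guard cells, while 1 other was lower. AGL16, a MADS-box factor with a known role in stomatal development, went the other way and read 4.09 to 4.88 (median 4.54) against 6.55 to 7.27 (median 6.98), a difference of -2.42.

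Markers of the other cell types of a leaf were lower in guard cells where they passed the test. The phloem sucrose exporter SWEET11, the 1 measured vascular marker of 22, read 3.92 to 6.53 (median 4.68) on guard cell arrays and 10.74 to 11.36 (median 11.06) on leaf arrays. No guard cell array came within 4 log2 units of a leaf array, and the difference was -6.21 (SE 0.284, adjusted p = 2.43e-12). FATB, an acyl carrier protein thioesterase and the 1 epidermis and cuticle marker measured, fell by 0.47, from 10.11 to 10.71 in leaves to 9.47 to 10.14 in guard cells, with ranges that just overlapped. The trichome marker TRY, a repressor of trichome fate, differed by -0.10 (adjusted p = 0.42). All 7 measured mesophyll markers of 28 were lower in guard cells, with a median difference of -0.91, and 4 had no overlap between tissues. Their mean level was 9.06 to 9.46 on the mutants' guard cell arrays and 10.03 to 10.76 on their leaf arrays. The lowest value of any of 6 of these markers on a guard cell array was 8.20, well above the foot of the scale. The other, STOMAGEN, a secreted peptide that promotes stomata, was near the foot in both tissues, with medians of 3.39 in guard cells and 3.70 in leaves. Guard cells have chloroplasts of their own, so their transcripts and those of other leaf cells in the sample cannot be told apart here.

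**Figure D1:**
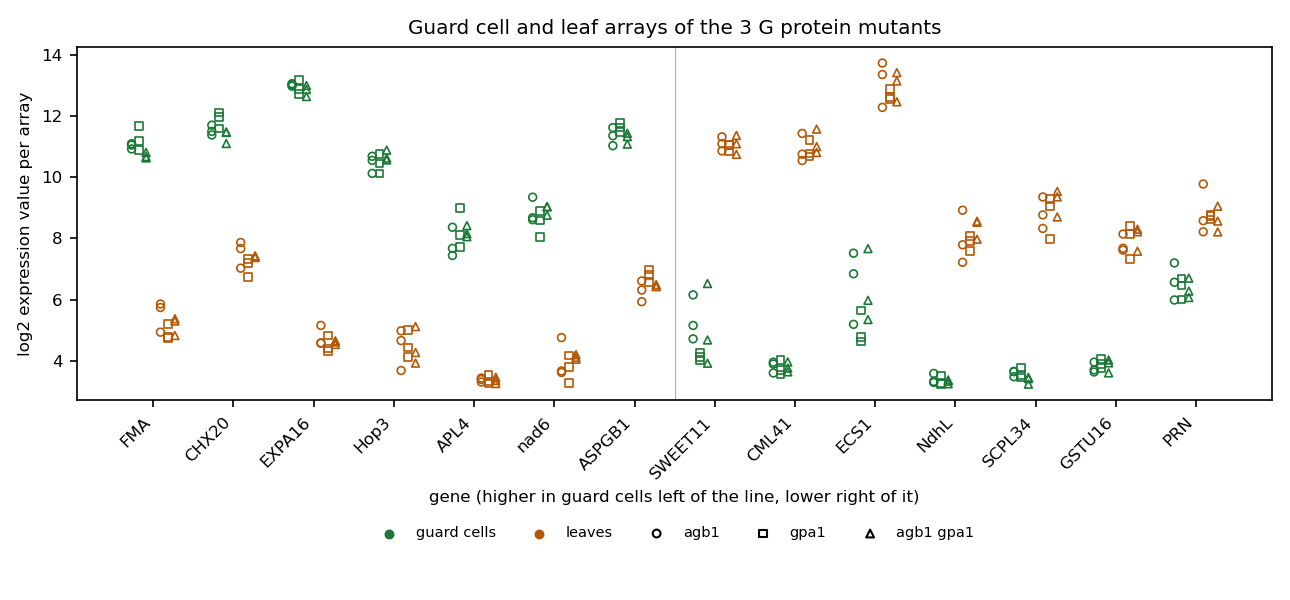
Log2 level (y axis) of 14 genes (x axis) on each of the 18 arrays, green for guard cells and brown for leaves, with circles for agb1, squares for gpa1 and triangles for agb1 gpa1. FMA lies between 10.63 and 11.66 in guard cells and at 5.86 or less in leaves, SWEET11 lies at 10.74 or more in leaves and at 6.53 or less in guard cells, and no gene shown overlaps between tissues.

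The largest difference of all named genes belonged to an expansin, a protein that loosens cell walls. EXPA16 read 12.63 to 13.17 (median 12.97) on guard cell arrays and 4.33 to 5.16 (median 4.59) on leaf arrays. The difference was 8.29 (SE 0.095, adjusted p = 1.64e-19), a ratio of 312, and agb1, gpa1 and agb1 gpa1 gave 8.24, 8.39 and 8.23. Of 19 expansin genes, EXPA16 alone was higher, 4 were lower and 14 did not pass the test, and EXPA9 had the lowest value at -1.92. 4 of the next named genes were the locus AT1G54050 at 7.77, AT5G48570 (ROF2) at 7.67, AT5G51440 at 7.24 and AT1G53540 at 6.63. ROF2, a peptidyl-prolyl isomerase of the FKBP family that works with heat shock proteins, read 12.51 to 12.96 (median 12.88) against 4.29 to 6.15 (median 4.89). The other loci are given by code, since the tables used here hold no name for them. The remaining named genes of the highest 15 ran from 6.40 at AT1G21540 through NET4B (Networked 4B), an actin-binding family member, at 6.32 and Hop3 at 6.06 to the U-box ligase PUB19 at 5.86.

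At the low end stood the locus AT3G62550 with a difference of -7.21, followed by CML41, AT1G62480 at -7.13 and ECS1. CML41, a calmodulin-like calcium-binding protein, read 3.55 to 4.04 (median 3.77) on guard cell arrays and 10.54 to 11.57 (median 10.80) on leaf arrays, a difference of -7.18 (SE 0.132, adjusted p = 2.64e-17). ECS1, of the salicylate and defence list, read 4.63 to 7.67 (median 5.65) against 12.28 to 13.73 (median 12.87), a difference of -6.98 (SE 0.347, adjusted p = 7.51e-12). The guard cell level of CML41 was near the foot of the scale on all 9 arrays, while that of ECS1 varied by 3 log2 units between arrays. The lowest 15 also held SWEET11, the serine carboxypeptidase-like gene SCPL34 at -5.41 and 9 more loci without a name here, from AT5G24210 at -6.56 to AT5G58570 at -5.41.

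**Figure D2:**
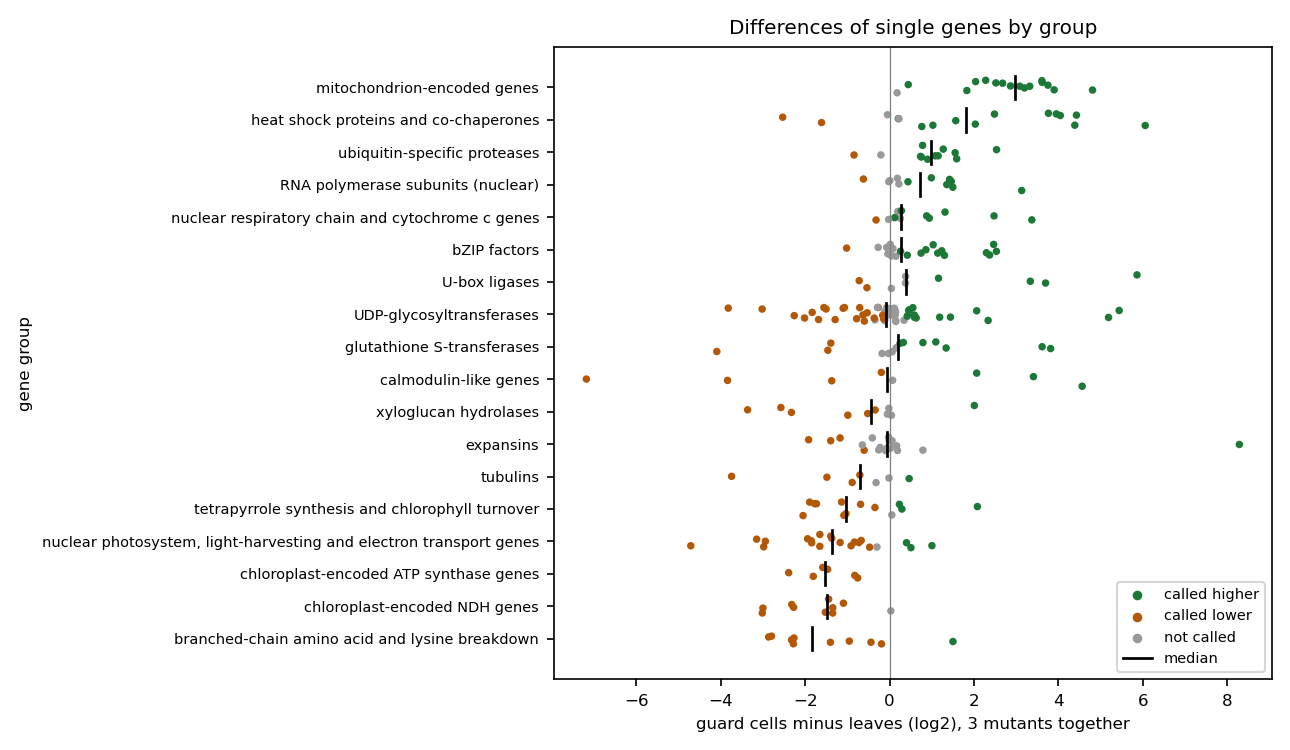
Guard cell minus leaf difference (log2, x axis) of each member of selected gene groups (y axis) over the 3 mutants, 1 point per gene in green where higher, brown where lower and grey where it did not pass, with a bar at the group median. Mitochondrion-encoded genes have a median of 2.98, heat shock proteins and co-chaperones 1.80, and chloroplast-encoded NDH genes -1.48.

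Genes for light capture and photosynthetic electron transport were mostly lower in guard cells. Of 21 such nuclear genes, 17 were lower and 3 higher, the median difference was -1.37 beside 0.03 over all probe sets, and 15 had no overlap between tissues. NdhL, a subunit of the chloroplast NDH complex that returns electrons to the plastoquinone pool, read 3.25 to 3.59 (median 3.33) on guard cell arrays and 7.22 to 8.92 (median 7.97) on leaf arrays. Its difference was -4.71 (SE 0.174, adjusted p = 1.33e-13), and the guard cell arrays lay at the foot of the scale. PSAN, a lumenal subunit of photosystem I, differed by -3.15, the thylakoid calcium-sensing protein CaS by -2.98 and AT4G01150 (CURT1A), which curves thylakoid membranes, by -2.94. The antenna protein LHCB4.1 of photosystem II read 11.08 to 11.36 (median 11.24) against 12.69 to 13.04 (median 12.88), a difference of -1.65. Its paralog LHCB4.2 also gave -1.65. PIFI, named for the chlorophyll fluorescence rise after illumination that depends on NDH, read 5.22 to 7.30 (median 5.89) against 10.77 to 11.31 (median 11.17), a difference of -5.03.

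The 3 nuclear genes of this group that were higher in guard cells were PGRL1B, NdhN and ATPC2. PGRL1B, a protein of cyclic electron flow around photosystem I, read 8.59 to 9.23 (median 8.93) against 7.23 to 8.54 (median 7.97), which left a narrow gap between tissues and a difference of 1.0045. NdhN, another subunit of the NDH complex, differed by 0.51, opposite in direction to NdhL. ATPC2, a gamma subunit of the chloroplast ATP synthase, differed by 0.40. Factors that assemble photosystems and NDH or edit organelle RNA had no shared direction: of 26, 9 were higher, 10 lower and 7 did not pass. CFM3A, which splices chloroplast introns, was highest at 2.37.

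Carbon fixation and pigment synthesis were also lower on the whole. 5 of 7 genes of the Calvin cycle and photorespiration were lower and 1 was higher. PRK, the phosphoribulokinase that regenerates the acceptor of carbon dioxide, read 8.20 to 9.10 (median 8.58) on guard cell arrays and 9.41 to 11.08 (median 9.83) on leaf arrays, a difference of -1.44 (SE 0.200, adjusted p = 5.67e-06). SBPASE, the sedoheptulose bisphosphatase of the same cycle, differed by -0.91 and RCA, the activase of Rubisco, by -0.90. Of 13 genes of tetrapyrrole synthesis and chlorophyll turnover, 9 were lower and 3 higher, with a median of -1.03. CHLI2, a subunit of magnesium chelatase, differed by -2.05, PORB, the light-dependent protochlorophyllide oxidoreductase, by -1.77 and the methyltransferase CHLM by -1.73. HEMA2, one of the glutamyl-tRNA reductases at the head of the pathway, was higher instead, with 9.05 to 9.52 (median 9.31) against 6.54 to 8.32 (median 7.25) and a difference of 2.08.

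Genes encoded in the chloroplast did not follow one direction. All 6 ATP synthase genes were lower, with a median difference of -1.52, and so were 9 of 10 NDH genes, with a median of -1.48, while ndhF differed by 0.03 and did not pass. The ATP synthase gene atpF read 8.51 to 10.49 (median 9.66) on guard cell arrays and 11.70 to 12.24 (median 11.91) on leaf arrays, a difference of -2.39. The NDH gene ndhH read 4.89 to 5.89 (median 5.59) against 7.96 to 8.82 (median 8.49), a difference of -3.01. Photosystem genes were mixed: 10 of 20 were lower, among them psaI at -2.27 and psaC at -2.15, 8 did not pass, and psbD at 1.11 and psbN at 0.75 were higher. In the cytochrome b6f group, petD read 7.96 to 8.89 (median 8.41) against 5.10 to 6.13 (median 5.87), a difference of 2.72, and petN stood at 1.66, while petL, petA and petB were lower.

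The highest chloroplast-encoded value was that of a ribosomal protein gene. Of 15 such genes, 7 were lower and rps14 alone was higher, with 9.16 to 10.20 (median 9.70) against 4.03 to 5.78 (median 4.97) and a difference of 4.67. The large Rubisco subunit gene rbcL read 10.77 to 11.13 (median 10.95) against 9.08 to 10.17 (median 9.60), a difference of 1.37, which put it opposite to the Calvin cycle genes PRK and SBPASE of the nucleus.

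Mitochondrion-encoded genes were higher nearly throughout. Of 16, 15 were higher in guard cells, all 15 without overlap between tissues, and the median difference was 2.98. Taken by genotype (agb1, gpa1, agb1 gpa1), the median was 3.14, 2.92 and 2.86. The complex I gene nad6 read 8.04 to 9.35 (median 8.76) on guard cell arrays and 3.28 to 4.76 (median 4.05) on leaf arrays, a difference of 4.81 (SE 0.167, adjusted p = 6.00e-14). The cytochrome oxidase gene cox1 read 10.36 to 11.22 (median 10.85) against 6.63 to 7.77 (median 7.19), a difference of 3.61. Both genes stood higher on every guard cell array than on any leaf array. The complex I genes nad5 and nad9 differed by 3.90 and 3.75, whereas nad7 differed by 0.44 and nad2 by 0.18 (adjusted p = 0.41).

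Nuclear genes of respiration moved less. Of 11 respiratory chain and cytochrome c genes, 7 were higher and 1 lower, with a median of 0.28. NDB2, an alternative NAD(P)H dehydrogenase of the mitochondrial inner membrane, read 10.29 to 11.51 (median 11.24) against 6.73 to 8.42 (median 7.78), a difference of 3.37. The cytochrome c gene CYTC-2 differed by 2.48 and SDH1-1, a subunit of succinate dehydrogenase, by 1.31.

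**Figure D3:**
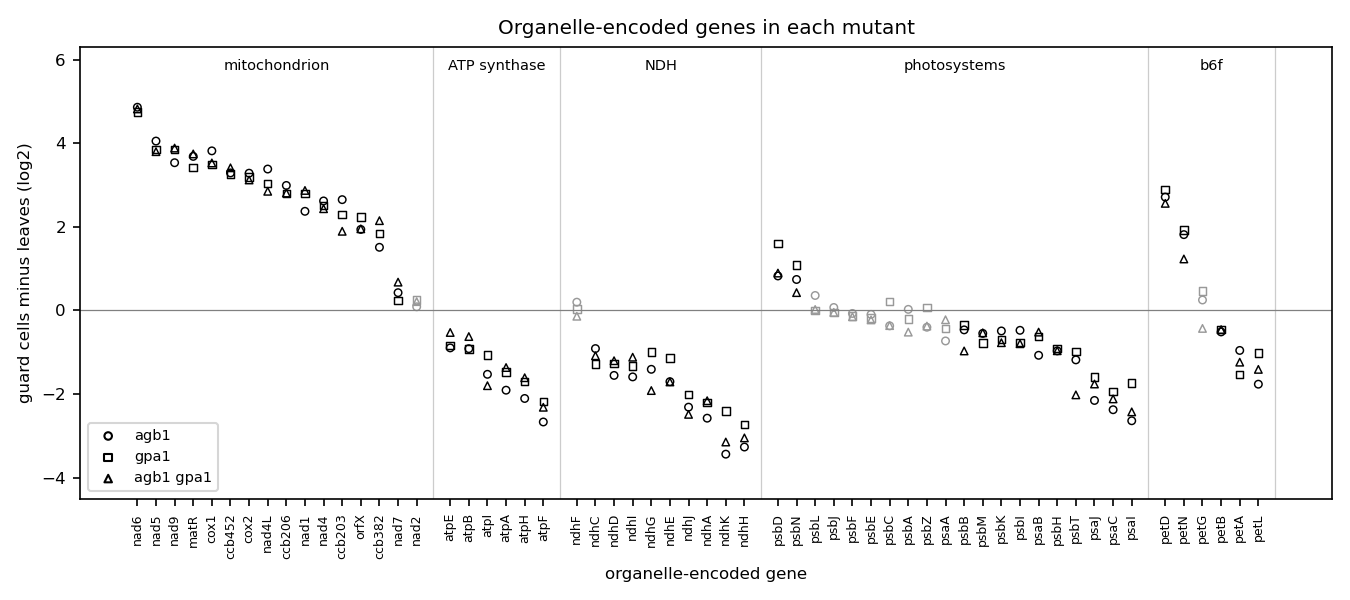
Guard cell minus leaf difference (log2, y axis) of each mitochondrion-encoded and selected chloroplast-encoded gene (x axis) in each mutant, with circles for agb1, squares for gpa1 and triangles for agb1 gpa1, in grey for genes that did not pass over the 3 mutants together. The mitochondrial genes lie above 0, from nad6 (4.81 over the 3 mutants) to nad2 (0.18), while most chloroplast genes lie below, down to ndhH (-3.01), with petD (2.72) the highest of those shown.

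Protein folding factors were among the strongest guard cell genes. Of 16 heat shock proteins and co-chaperones, 12 were higher and 2 lower, the median was 1.80, and 11 had no overlap between tissues. Hop3, the organizer that links HSP70 to HSP90, read 10.12 to 10.88 (median 10.56) on guard cell arrays and 3.68 to 5.12 (median 4.43) on leaf arrays, a difference of 6.06 (SE 0.188, adjusted p = 1.39e-14). Fes1A, an HSP70 co-chaperone, differed by 4.43, while its relatives Fes1C and Fes1B were lower at -2.53 and -1.61. The small heat shock protein ATHSP22.0 differed by 3.95, HSA32 by 4.39 and the chaperonin subunit Cpn60beta3 by 4.04. Genes of endoplasmic reticulum stress and folding were split, with 5 higher and 5 lower of 13. The factors BZIP60 and BZIP28 of the unfolded protein response were higher by 2.37 and 2.30, and the J protein ATERDJ3B was lower at -1.90. Every guard cell sample went through an isolation that no leaf sample did, so isolation and cell type cannot be told apart.

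Protein turnover genes were higher in part. 10 of 12 ubiquitin-specific proteases were higher and 1 lower, with a median of 0.99, led by UBP26 at 2.53. 4 of 9 U-box ligases were higher and 2 lower. PUB19 read 9.92 to 10.93 (median 10.52) against 4.22 to 5.27 (median 4.42), a difference of 5.86, and the immune and drought regulators PUB23 and PUB22 differed by 3.70 and 3.34. Of 13 ubiquitin-conjugating enzymes, 4 were higher and 5 lower. 7 of 12 subunits of nuclear RNA polymerases were higher and 1 lower, and NRPC1, the largest subunit of polymerase III, had the top value at 3.13.

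Calcium and stress signalling genes went to both extremes. Of 8 calmodulin-like genes, 3 were higher and 4 lower. Against CML41 at the low end, CML23 read 9.31 to 10.08 (median 9.82) on guard cell arrays and 4.74 to 5.86 (median 5.18) on leaf arrays, a difference of 4.56. The touch- and wound-responsive CML38 and CML37 were also higher, by 3.41 and 2.06, and CML30 was lower at -3.84. STZ, a zinc finger repressor induced by stress, read 12.92 to 13.39 (median 13.15) against 10.15 to 10.77 (median 10.37), a difference of 2.76. In the glutamate receptor-like channels, 1 of 8 was higher, GLR3.3 at 2.03, and 4 were lower, with GLR2.7 lowest at -2.71.

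Genes of touch, wounding, jasmonate and defence went both ways. Of 27 genes of jasmonate, wounding and defence peptides, 9 were lower, a share near that of all probe sets, 4 were higher and 14 did not pass. Of 48 genes on the touch, wound and jasmonate list, 6 were measured. Of these 6, 4 were higher (CML23, CML38, CML37 and STZ) and 2 lower (PDF1.2 and WRKY53). Their median was 2.41, and 5 had no overlap between tissues. The defensin PDF1.2 differed by -2.79 and the defensin-like LCR68 by -4.33. GRX480, a glutaredoxin that binds TGA factors, was the highest of the group, with 10.57 to 11.05 (median 10.85) against 4.03 to 6.15 (median 4.98) and a difference of 5.69. 3 of 7 WRKY factors were higher and 2 lower. WRKY6 read 11.05 to 11.84 (median 11.43) against 7.26 to 8.34 (median 7.67), a difference of 3.74, while WRKY53 and WRKY47 were lower at -1.58 and -1.81. SAG101, a lipase-like partner of immune receptors, was lower at -2.04.

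Among genes of the wall and the surface, xyloglucan hydrolases, trichome birefringence-like genes and tubulins were lower more often than higher. 6 of 10 xyloglucan hydrolases were lower and 1 was higher, with XTH33 at -3.36, XTH32 at -2.57 and XTH19 at -2.32. XTH16 was higher by 2.01, with 8.61 to 9.78 (median 9.04) against 6.02 to 8.84 (median 6.51), and 1 leaf array reached into the guard cell range. Of 24 trichome birefringence-like genes, which acetylate wall polymers, 6 were higher and 11 lower, and TBL38 was lowest at -3.03. AT5G61590 (DEWAX), a repressor of wax synthesis, read 6.12 to 7.68 (median 6.64) against 10.26 to 11.25 (median 11.03), a difference of -4.17. 4 of 7 tubulins were lower and 1 higher, with TUB5 at -3.74, and the actin-bundling protein WLIM1 stood at -4.66. 2 of 15 cellulases of family 9 were higher, 1 was lower and 12 did not pass.

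Families of enzymes that conjugate small molecules held large differences of both signs. Over all probe sets 30.5% were higher and 28.2% lower, so counts near these shares are not read as a trait of a family. Of 52 UDP-glycosyltransferases, 14 were higher, 20 lower and 18 did not pass, with a median of -0.08. UGT73B5 read 11.02 to 11.88 (median 11.64) on guard cell arrays and 5.12 to 6.81 (median 6.31) on leaf arrays, a difference of 5.44, and its close relative UGT73B4 differed by 5.19. UGT74D1 and UGT72E1 were lower at -3.82 and -3.02. 7 of 14 glutathione S-transferases were higher and 3 lower, from GSTU25 at 3.82 and GSTU26 at 3.61 down to GSTU16. GSTU16 read 3.61 to 4.07 (median 3.90) against 7.33 to 8.40 (median 8.14), a difference of -4.09. Of 19 CYP71B enzymes, 2 were higher and 8 lower, with CYP71B23 at -4.20 and CYP71B26 at -4.10. 10 of 29 serine carboxypeptidase-like genes were lower and 6 higher, and SCPL34 read 3.24 to 3.76 (median 3.48) against 7.99 to 9.53 (median 9.06).

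Transport of sugars and nitrogen differed gene by gene. Of 16 SWEET family sugar transporters, 6 were lower, with SWEET10 at -2.47 and the vacuolar fructose transporter SWEET17 at -2.05 behind SWEET11, while AtVEX1 was higher by 3.06. AT1G68570 (NPF3.1), a transporter of the nitrate and peptide family, read 3.54 to 4.15 (median 3.90) against 8.61 to 9.76 (median 9.26), a difference of -5.39. The glucosinolate importer GTR2 stood at -3.32. Of the 11 NPF transporters measured, 3 were higher and 3 lower, none of the higher ones by 2-fold.

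Starch and amino acid metabolism held contrasts of both signs. APL4, a large subunit of the ADP-glucose pyrophosphorylase that feeds starch synthesis, read 7.44 to 8.997 (median 8.12) on guard cell arrays and 3.26 to 3.53 (median 3.36) on leaf arrays, a difference of 4.73. Its relative APL3 was higher by 1.04. Of 6 starch metabolism genes, 3 were higher and 2 lower, but with each array centred on its median 3 were higher and 0 lower. Of 27 genes on the starch and sugar list, 6 were measured. Of these 6, 1 was higher and 5 were lower, with a median of -0.55, and 3 were lower with each array centred on its median. ASPGB1, an asparaginase, read 11.03 to 11.76 (median 11.43) against 5.93 to 6.99 (median 6.49), a difference of 4.90. Breakdown of branched-chain amino acids and lysine was lower in 9 of 10 genes, with a median of -1.83. The methylmalonate semialdehyde dehydrogenase ALDH6B2 read 7.70 to 8.87 (median 7.99) against 10.20 to 11.78 (median 11.34), a difference of -2.86, IVD, the isovaleryl-CoA dehydrogenase, stood at -2.28, and D2HGDH at -2.32. BCAT4, an aminotransferase of methionine chain elongation for glucosinolates, was at -2.80 with ranges that overlapped. The exception was AT4G33150, the bifunctional enzyme of lysine breakdown, which was higher by 1.502.

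Hormone response genes and transcription factors closed the survey. None of 15 auxin-response and auxin-conjugating genes was higher and 5 were lower, a share near the background for lower probe sets. HAT2, an auxin-induced homeodomain factor, read 4.66 to 6.76 (median 5.44) on guard cell arrays and 9.02 to 10.10 (median 9.61) on leaf arrays, a difference of -4.02. The auxin-conjugating enzymes GH3.3 and WES1 stood at -2.22 and -2.18. Of the 6 ABA response genes measured from a list of 38, 4 were higher and 2 lower. LEA4-5, a late embryogenesis abundant protein, read 6.50 to 7.57 (median 7.33) against 3.77 to 4.71 (median 4.35), a difference of 2.93. The cold-regulated pair COR15A and COR15B went in opposite directions, at -1.99 and 2.06, and the COR15A ranges overlapped, with 8.15 to 10.41 against 10.09 to 12.59.

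Of 23 bZIP factors, 12 were higher and 1 was lower, with bZIP52 at 2.53 and AT4G38900 (bZIP29) at 2.47. Of 16 bHLH factors, 5 were higher and 7 lower. SPT (SPATULA), a bHLH factor of carpel and leaf growth, read 6.998 to 8.09 (median 7.83) against 3.59 to 4.30 (median 3.87), a difference of 3.82. 30 of 42 AGAMOUS-like factors did not pass, 7 were higher and 5 lower. GI (GIGANTEA), a clock component and the 1 clock gene measured of 15, was higher by 1.60 (adjusted p = 1.31e-05). It read 8.69 to 9.35 on guard cell arrays and 6.32 to 8.97 on leaf arrays, so the ranges overlapped. PRN (pirin), a cupin protein that binds GPA1, was the 1 G protein partner of 20 with a probe set of its own. It read 5.99 to 7.20 (median 6.46) on guard cell arrays and 8.21 to 9.78 (median 8.62) on leaf arrays, a difference of -2.28 (SE 0.199, adjusted p = 1.47e-08), and agb1, gpa1 and agb1 gpa1 gave -2.27, -2.32 and -2.26.

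The same comparison was then made in each mutant. In agb1, 9295 probe sets passed (40.9%), in gpa1 9929 (43.7%) and in agb1 gpa1 10338 (45.4%). A total of 7607 passed in the same direction in all 3 mutants (33.4%), 3719 higher (16.4%) and 3888 lower (17.1%). Across probe sets, which share arrays and are not independent, the differences of any pair of mutants correlated at 0.954 to 0.965. 5 probe sets passed in opposite directions in a pair of mutants. 3 of the 5 were tied to 1 gene, and of these AT5G03610 gave 1.76, -2.59 and 0.35 in the order agb1, gpa1, agb1 gpa1, and AT1G05340 gave 1.04, -1.92 and 0.02.

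**Figure D4:**
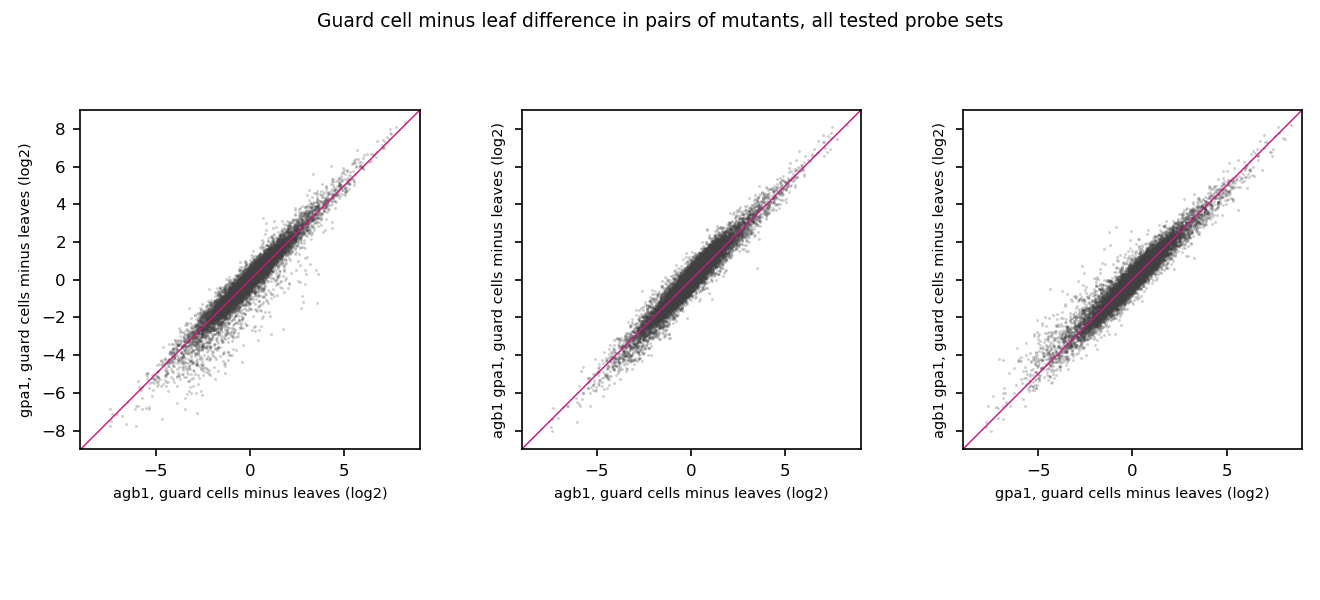
Guard cell minus leaf difference (log2) in one mutant against that in another for the 3 pairs of mutants, 1 point per probe set, with the line of equality. Points lie along the line, with correlations of 0.954 to 0.965, and the panels with gpa1 show more scatter on one side of it. In the panel of agb1 and gpa1, 116 probe sets have a contrast of gpa1 minus agb1 of -2 or less. In that of gpa1 and agb1 gpa1, 48 have a contrast of agb1 gpa1 minus gpa1 of 2 or more.

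The test of the difference between mutants called no probe set. For gpa1 minus agb1, the double mutant minus agb1 and the double mutant minus gpa1, limma called 0 probe sets each (0% of those tested), with 1045, 847 and 955 at an unadjusted p under 0.05. The same contrasts had a lopsided tail in their values, given here without a test. For gpa1 minus agb1, 116 probe sets had a contrast of -2 or less and 3 of 2 or more. For the double mutant minus gpa1, 48 were at 2 or more and 1 at -2 or less, and for the double mutant minus agb1 1 and 2.

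These 116 probe sets varied among arrays of a genotype. They were picked by the contrast on these same arrays, so a larger guard cell minus leaf difference in agb1 than in gpa1 is built in. Their median level on guard cell arrays was 8.54, 6.90 and 7.28 in replicates 1 to 3 of agb1, 5.36, 5.01 and 5.34 in gpa1, and 8.44, 6.53 and 5.44 in the double mutant. The medians on replicate 1 of agb1 and replicate 1 of the double mutant were close to those of their leaf arrays, at 8.41 to 8.79 and 8.51 to 9.04. Over the 3 mutants, most named members of the set read lower in guard cells than in leaves. A minority, CCR2 among them, read higher, so close medians are not likeness gene by gene. WT guard cell arrays lay at 5.99, 6.63 and 7.17. CCR2 (AT1G80820), a cinnamoyl-CoA reductase, read 9.35, 7.91 and 8.56 in agb1 guard cells, 4.67, 4.56 and 4.94 in gpa1 and 9.96, 8.37 and 5.44 in the double mutant. Its leaf arrays read 4.09 to 6.34, and its contrast of gpa1 minus agb1 was -4.78 (SE 1.12, adjusted p = 0.381). The same arrays were high for SWEET11, which read 6.15, 5.16 and 4.72 in agb1 guard cells, 4.02, 4.12 and 4.24 in gpa1 and 6.53, 4.68 and 3.92 in the double mutant. ECS1 read 7.52, 5.19 and 6.84, then 5.65, 4.79 and 4.63, and then 7.67, 5.35 and 5.98. Among other genes far lower in guard cells than in leaves, some rose there and some did not. AT1G23130, a member of the set, read 11.19, 9.19 and 8.39 in agb1 guard cells and 6.03, 4.76 and 5.04 in gpa1. It read 11.07, 8.46 and 5.60 in the double mutant and 12.19 to 13.02 on the mutants' leaf arrays. CML41, SCPL34 and NdhL, which were named for their large differences, did not rise. Over all guard cell arrays of the mutants, CML41 read 3.55 to 4.04, SCPL34 3.24 to 3.76 and NdhL 3.25 to 3.59. Mean levels of the mesophyll markers were 9.06 to 9.35 in agb1 guard cells, 9.29 to 9.37 in gpa1 and 9.19 to 9.46 in the double mutant. On the mutants' leaf arrays they were 10.03 to 10.76, a much narrower gap between tissues than that of SWEET11. What replicate 1 of agb1 and replicate 1 of the double mutant share beyond the levels given was not tested.

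The mutants were last set against WT, which was measured in the same way on 6 arrays. Of the 13359 probe sets called over the mutants, 12464 (93.3%) had the same sign in WT, and of the 6085 with at least 2-fold differences 6031 (99.11%) did. Across probe sets the mutants' mean difference and that of WT correlated at 0.94. EXPA16 differed by 7.75 in WT, FMA by 5.05 and SWEET11 by -6.32. The median of the mitochondrion-encoded genes was 3.73 in WT.

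The contrast of mutants minus WT called 299 probe sets (1.31%), 170 higher (0.747%) and 129 lower (0.567%). With each array centred on its own median, which moved the median of all probe sets by -0.14, the split was 129 higher and 255 lower, so no overall direction is given. The count depended on single arrays and ranged from 2 to 895 with each array left out. It was 2 without WT guard cell replicate 3 and 9 without WT leaf replicate 1. 3 of 7 mesophyll markers were among the calls. PRK differed by -3.38 in WT and by -2.20, -1.19 and -0.94 in the mutants (order as above), a contrast of 1.94 (adjusted p = 0.0298). SBPASE differed by -2.42 in WT against -1.37, -0.67 and -0.69, a contrast of 1.51. HPR, the hydroxypyruvate reductase of photorespiration, differed by -2.18 in WT against -0.89, -0.76 and 0.08, a contrast of 1.66 (adjusted p = 0.0404). RCA had a difference of -1.78 in WT and its contrast did not pass (adjusted p = 0.221). Mean levels of the mesophyll markers in WT were 8.53 to 9.48 on guard cell arrays and 10.74 to 11.23 on leaf arrays, against 10.03 to 10.76 on the mutants' leaf arrays. Each of these 3 calls was lost without either of the WT arrays named above, and CFM3A, BZIP60 and GLR3.3, with contrasts of 1.60, -1.18 and 0.995, lost theirs in the same fits.

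The 5 highest and the 5 lowest named calls of this contrast were mostly loci without a name here. THIC, an enzyme of thiamine synthesis, read 9.68, 9.86 and 9.10 on WT leaf arrays, above the 7.31 to 8.83 of the mutants' leaf arrays, while guard cell arrays of the 4 genotypes lay at 5.92 to 7.30. Its contrast was 2.06. AT2G22320 differed in guard cells instead, with 6.85, 6.63 and 7.94 in WT and 4.03 to 5.90 in the mutants, and 3.01 to 3.26 on all leaf arrays, and its contrast was -2.01. UGT73D1, a glycosyltransferase, read 9.36, 8.55 and 9.90 on WT guard cell arrays and had a contrast of -1.97.

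**Figure D5:**
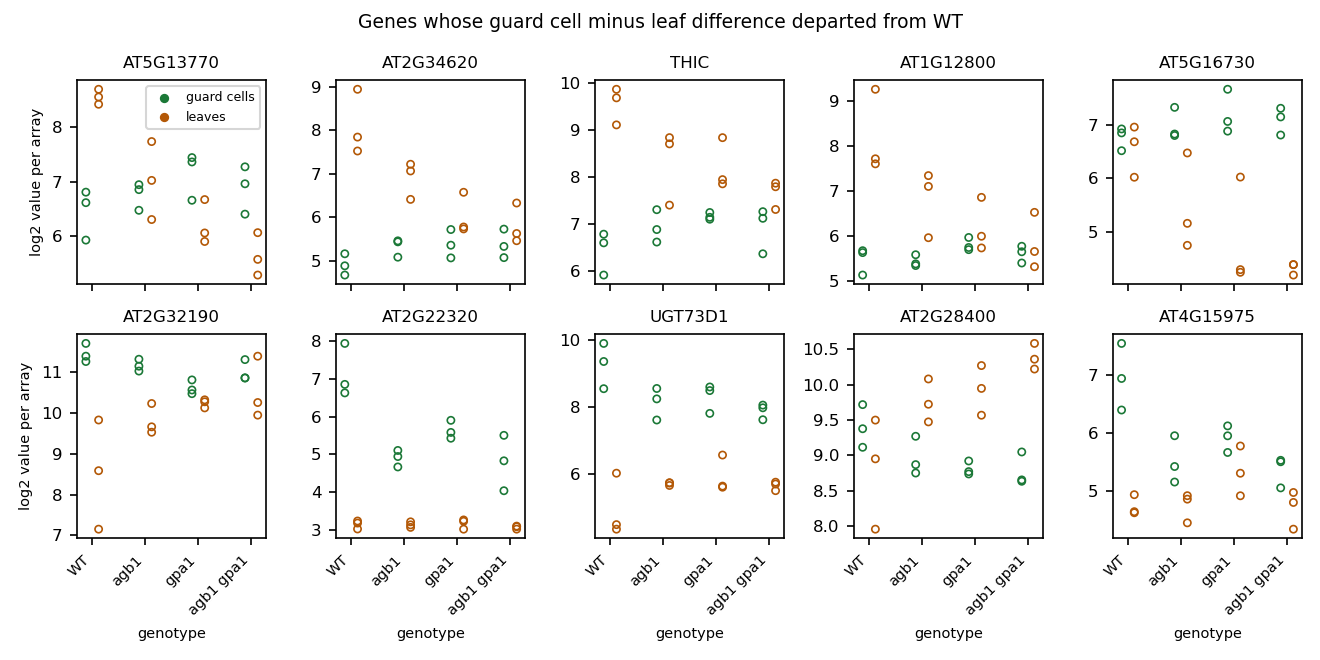
Log2 level (y axis, a scale for each panel) on the 24 arrays of WT and the 3 mutants (x axis) for the 5 highest (top) and 5 lowest (bottom) named calls of the contrast of mutants minus WT, green for guard cells and brown for leaves. THIC lies at 9.10 to 9.86 on WT leaf arrays and at 8.83 or less on those of the mutants, and AT2G22320 at 6.63 or more on WT guard cell arrays and at 5.90 or less on those of the mutants.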

How the data were processed

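RNA of 18 samples (9 guard cell, 9 leaf) of 3 mutants, and of 6 WT samples, was measured on 1-colour Affymetrix arrays. The authors deposited log2 values made with RMA in affy, per the submitters' processing notes; versions are not given in the sources used here. Only control probe sets (64 of 22810) were left out, with no filter on dim ones. Differences were fitted with limma 3.58.1 in R 4.3.3, as a tissue effect with genotype as a covariate over 18 arrays, as contrasts of 6 groups for single mutants and differences between mutants, and of 8 groups (24 arrays) against WT. P-values are two-sided with Benjamini-Hochberg adjustment over 22746 probe sets, called under 0.05. Arrays give no read depth, so their number limits the precision. The fit was tested on simulated data.

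Gene names came from the platform annotation, updated through RefSeq for 13436 probe sets. A gene measured by more than 1 probe set is represented by whichever had the top mean level on the 18 arrays. Genes were named by a rule: the 15 highest and 15 lowest called differences without overlap, the 5 highest and 5 lowest calls of each contrast, up to 4 called members with the largest difference of each gene list, and all markers of cell types and G protein partners measured. A few other list members are named to complete a count or a pathway. The members and lists were chosen with earlier results of these data known, and the annotation groups were rewritten after the tables arrived, so they are descriptions and give no independent support. Genes called in opposite directions, and those shown for the tail of the contrast between gpa1 and agb1, were chosen after their values were seen. Alternatives were median centring, quantile normalization, a filter on dim probe sets (mean under 6), a replicate block, intensity trend with robust variance, a minimum difference of 1, all 48 arrays and leaving out each array. A fit without guard cell replicate 1 of agb1 and of agb1 gpa1 was added after seeing the data.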

Additional observations from a re-analysis of the deposited data

Results flagged for a closer look

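10 genes, the 5 highest and 5 lowest calls of the contrast, were singled out because their guard cell minus leaf difference differed between the mutants' mean and WT by limma's interaction contrast (log2 scale, 3 arrays for each tissue and genotype). The contrast was 2.73 for AT5G13770 (adjusted p = 0.0105), 2.32 for AT2G34620, 2.06 for THIC, an enzyme of thiamine synthesis, 2.05 for AT1G12800 and 2.01 for AT5G16730. It was -2.20 for AT2G32190, -2.01 for AT2G22320, -1.97 for UGT73D1, -1.78 for AT2G28400 and -1.56 for AT4G15975. All 3 mutants lay on the same side of WT for each of the 10. The genes were picked by the mutants' mean against shared WT arrays, so this agreement is largely built in.

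All 10 calls were lost without guard cell replicate 3 of WT, and 9 of the 10 without its leaf replicate 1, AT5G13770 being the exception. No direction was reversed in any fit.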

How the results depend on the processing

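Of the 274 genes followed for the comparison over the 3 mutants, 268 stayed called under every alternative other than the minimum difference of 1, no direction was reversed, and SWEET4, PWD, DPE1, MUTE and HPR lost their call at least once. The 13359 calls became 13923 with median centring, 13371 with quantile normalization, 13527 with an intensity trend, 13101 with all 48 arrays and 4045 when a difference had to exceed 1. Without dim probe sets, fewer were tested, and 7886 were called over the mutants, 6411 in gpa1 and 6694 in agb1 gpa1. Leaving out each array gave 13047 to 13399 calls over the mutants, 8219 to 9474 in agb1, 8720 to 10354 in gpa1 and 9222 to 10760 in agb1 gpa1.

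The 0 calls of gpa1 minus agb1 became 2 with an intensity trend and robust variance, and 0 to 15 with each array left out. All 15 were lower and came without guard cell replicate 1 of agb1 gpa1. Without this array and guard cell replicate 1 of agb1, a fit chosen after seeing the data, 4 were called. The cause was not tested. The other genotype contrasts gave 0 in all of these fits. Against WT, the 299 calls ranged from 2 to 895 with each array left out, and were 194 without guard cell replicate 1 of agb1 and of agb1 gpa1, 384 with median centring and 263 with quantile normalization.

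Shared replicate numbers did not pair guard cell and leaf samples: correlations of their deviations were -0.218 to 0.221, and 1 of 9 was over 0.1. With the replicate block, 13236 were called over the mutants, 9035 in agb1, 9638 in gpa1, 10071 in agb1 gpa1, 231 against WT and 0 in each genotype contrast. The number of arrays limits precision.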

Other observations

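Membrane proteins and trafficking genes differed by subunit between guard cells and leaves of the 3 mutants. Of 15 tetraspanins, 6 were lower and 2 higher. TET3 read 4.13 to 5.25 (median 4.46) on guard cell arrays and 7.31 to 8.76 (median 8.34) on leaf arrays, a difference of -3.57, while TET9 was higher by 1.91 with ranges that overlapped. Of 7 subunits of the exocyst, which tethers secretory vesicles, 4 were higher and none was lower, with SEC15B at 1.74 and SEC15A at 1.46. Of 9 genes for ATG8, the protein that coats autophagosomes, 4 were higher and 3 lower. ATG8B read 8.87 to 9.63 (median 9.21) against 6.42 to 7.58 (median 7.13), a difference of 2.21, and ATG8E stood at -0.89. Members of the IQ-domain family, which bind calmodulin, went to both sides, with iqd21 at 3.81 and IQD24 at -3.44.

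Peptide signals and gibberellin signalling also split. Of 18 RALF and CLE peptide genes, 6 were lower and 4 higher, and RALFL32 was lowest at -2.61. Of 6 gibberellin receptor and signalling genes, 3 were lower and 2 higher. The receptor gene GID1A stood at -1.19 and the F-box gene SLY1, which removes DELLA repressors, at -1.27, whereas the receptor gene GID1B was higher by 0.63 and SPY, a glycosyltransferase that restrains the pathway, by 1.06. Of 7 flavonoid genes, 4 were higher and none was lower, led by the glycosyltransferase UGT78D2 at 1.44. None of the 4 auxin synthesis YUC genes measured passed the test.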
